A study of Mus musculus with 6 samples.

Results

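The 10 genes described here encode chromatin proteins that silence retrotransposons: Mphosph8, Fam208a, Pphln1, Morc2a, Setdb1, Atf7ip, Trim28, Dnmt1, Uhrf1 and Dnmt3a. They are listed by name for this role, by a rule that uses no measured value, but were chosen with earlier results of these data known. They make up 10 of the 24421 genes in the count table and 10 of the 13084 genes that were tested. Each of the 10 passed the filter on low counts, so none was lost. Fam208a is the older symbol of Tasor, which the table uses.

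The human silencing hub, or HUSH complex, is built from TASOR, MPP8 (the product of Mphosph8) and periphilin (the product of Pphln1). MPP8 binds histone H3 methylated at lysine 9, and the complex brings in the methyltransferase SETDB1, which writes that mark, and the ATPase MORC2, which compacts the bound chromatin. Young LINE-1 (L1) elements are among its best-known targets. A separate route starts from KRAB zinc finger proteins, whose corepressor KAP1 (the product of Trim28) also recruits SETDB1. Methylation of CpG dinucleotides by DNMT1, which UHRF1 brings to its sites, and by DNMT3A represses L1 promoters in somatic cells.

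The comparison asked whether switching on an L1 transgene is accompanied by a different transcript level of these silencers. The cells were 4T1-tetL1(GLucAI), a derivative of the mouse breast carcinoma line 4T1 (strain label BALB/cfC3H), and the 6 libraries of ribosome-depleted total RNA came from 3 cultures labelled untreated and 3 that received doxycycline (400 ng/mL) over 48 h. Both groups carried the same PiggyBac-integrated cassette, in which an EF1α promoter drives the Tet-On 3G activator and a doxycycline-responsive bidirectional promoter drives firefly luciferase on one side and, on the other, a recoded mouse L1 with a Gaussia luciferase reporter of retrotransposition. The cells were a blasticidin-selected stable population and not a single clone, and no line without the cassette was analysed here, so an effect of the drug itself and an effect of L1 cannot be told apart. The treatment tag of the untreated group reads vehicle. Transcripts of the cassette were not analysed here, so the direction of every comparison rests on the labels.

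Library totals lay between 31653464 and 43631312 counts, and 3 counts correspond to 0.0688 to 0.0948 CPM (the scaled read count that corrects for library size), a limit set by counting error alone. Every epithelial marker on the list was tested (7 of 7), and their summed level was 1834 to 1920 CPM in untreated libraries and 1783 to 2018 CPM in doxycycline libraries, with 0 higher and 1 lower, Krt19 (log2 fold change -0.31, adjusted p = 0.00782 by edgeR's quasi-likelihood test). Without untreated replicate 2 or without doxycycline replicate 3, Krt19 no longer passed. Of the 7 epithelial markers, 6 had a log2 fold change above 0, and the groups did not overlap for 3. Besides Krt19 these were Epcam (0.13, adjusted p = 0.336) and Cldn4 (0.25, adjusted p = 0.0858), both with higher values in doxycycline libraries but not called. Over all tested genes the same test called 0.925% higher and 2.16% lower. Of 14 markers of immune, endothelial and stromal cells, 3 passed the filter and Adgre1 and Lum had no count in any library. Their summed level was 48.0 to 49.3 CPM in untreated libraries and 38.5 to 40.7 CPM in doxycycline libraries, with 0 higher and 1 lower, Pdgfra (log2 fold change -0.40, adjusted p = 0.000952). Pdgfra made up nearly all of this difference, at 36.7 and 27.8 CPM, while Cd68 was at 9.90 and 9.52 CPM. The part of these markers in the values of the silencer genes was not tested. The libraries came from a cultured carcinoma line and not from a tissue. In bulk RNA, fewer cells that express a gene and less of its RNA per cell cannot be told apart.

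Promoter sequence is shown for Dnmt1, because its annotated starts differ widely in CpG content and a gene count cannot separate them. RefSeq (GRCm38.p6) lists 17 promoters for the 10 genes, each taken as 250 bases before to 50 bases after a start, and 5 of the genes have more than 1. For every one of the 10 genes the most CpG-rich promoter held more CpG dinucleotides than the median of 7 over 32851 promoters of the same length, as did the most CpG-rich promoter of 51% of 27025 genes. The 27025 genes were not limited to tested genes, whereas all 10 silencer genes were tested, so the sets are unlike. The highest counts of the 10 genes ran from 15 in Setdb1 to 53 in Pphln1, whereas another promoter of Morc2a held 0. Dnmt1, the maintenance methyltransferase, lies on the minus strand of chromosome 9, and 2 of its annotated starts are 7265 bases apart. The upstream promoter of these 2 held 2 CpG dinucleotides and the downstream one 33. Another Dnmt1 promoter, located between them, held 12. The 100 bases before each start are given with every CpG in capitals, chr9:20959889-20959988 for the upstream start and chr9:20952624-20952723 for the downstream start, both 5′ to 3′ on the minus strand.
Dnmt1 upstream start: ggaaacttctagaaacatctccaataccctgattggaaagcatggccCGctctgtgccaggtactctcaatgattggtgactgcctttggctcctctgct
Dnmt1 downstream start: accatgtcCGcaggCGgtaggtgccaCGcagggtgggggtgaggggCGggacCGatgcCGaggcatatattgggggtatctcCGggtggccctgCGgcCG
The first stretch holds 1 CpG and the second 9.

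The promoters were also searched on both strands for 2 forms of the E2F site, TTTCCCGC and TTTGGCGC, since E2F factors drive genes of DNA replication, during which DNMT1 and UHRF1 act. Either form occurred in 1.56% of all promoters, TTTCCCGC in 1.07% and TTTGGCGC in 0.514%. Among the 17 promoters there was 1 match, to TTTGGCGC, 33 bases after the downstream start of Dnmt1 at chr9:20952574-20952603 on the minus strand, with the motif in capitals.
Dnmt1 motif: gcgcggggcagcgTTTGGCGCgggctgtgc
A match of letters is a description and not a binding site.

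None of the 10 silencer genes passed the test between doxycycline and untreated libraries. By edgeR's quasi-likelihood test with Benjamini-Hochberg adjustment over all tested genes, 0 were higher and 0 lower. Of all tested genes 3.09% were called in either direction, 0.925% higher and 2.16% lower, so a count of 0 among 10 genes lies close to the background. DESeq2 and limma voom also called 0. At an unadjusted p under 0.05 there were 0 of the 10 by edgeR, against 16.2% of all tested genes, and the smallest unadjusted p was 0.0871, for Dnmt3a. The groups overlapped for every one of the 10 genes, whereas they did not overlap for 21.3% of tested genes. The median log2 fold change was 0.017 for the 10 genes and 0.0025 for all tested genes, and 7 values lay above 0 and 3 below, beside 50.8% above 0 over all tested genes. The median of the 10 genes became -0.0042 without untreated replicate 3 and 0.0015 without doxycycline replicate 2, so its sign rested on 1 library. The median absolute log2 fold change was 0.020, and 0.0885 over all tested genes, which include many of lower count. The 95% intervals of the 10 genes together ran from -0.29 to 0.22 on the log2 scale, that is from a level 17.9% lower to one 16.4% higher.

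**Figure D1:**
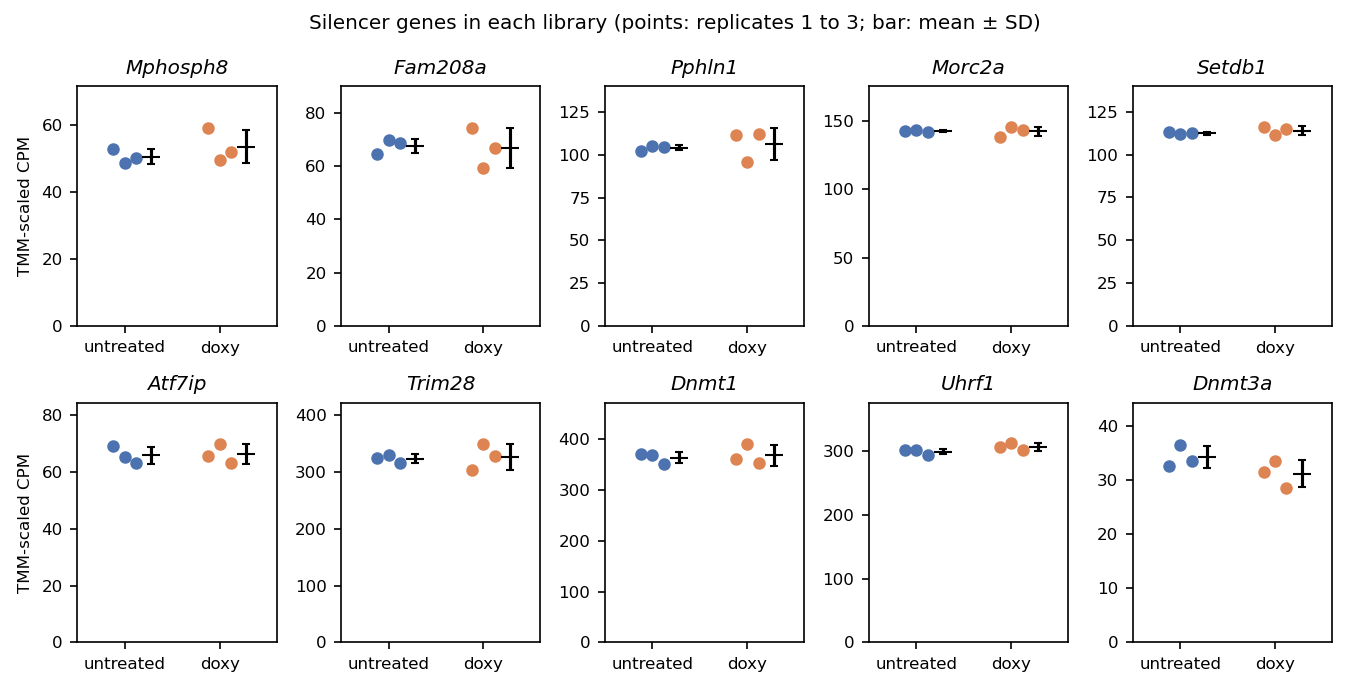
Normalized level (CPM, y axis from 0) of each of the 10 silencer genes in 3 untreated libraries and 3 doxycycline (doxy) libraries, with points in the order of replicates 1 to 3 and bars giving the mean ± SD. The points of the groups overlap in every panel, and the doxycycline points are spread more widely.

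Among the HUSH core genes (positions of all genes are RefSeq, GRCm38), Mphosph8 (chr14:56668235-56697430, plus strand) encodes the reader of methylated H3 lysine 9. Its level was 52.9, 48.7 and 50.3 CPM in untreated replicates 1 to 3 and 59.2, 49.5 and 52.0 CPM in doxycycline replicates 1 to 3. Doxycycline replicate 1 was the highest of the 6 and the other 5 lay within the same narrow span, so the groups overlapped. Between the groups the log2 fold change was 0.08 (SE 0.067, 95% interval -0.06 to 0.22, adjusted p = 0.608). It was 0.0028 without doxycycline replicate 1 and 0.13 without doxycycline replicate 2.

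Fam208a (chr14:27423674-27483555, plus strand) encodes TASOR, the scaffold that holds the complex together. It stood at 64.7, 69.7 and 68.6 CPM without the drug and at 74.3, 59.2 and 66.9 CPM with it. Both the highest and the lowest library were doxycycline libraries, replicates 1 and 2, and the untreated values lay between them. Its log2 fold change was -0.02 (SE 0.068, 95% interval -0.16 to 0.12, adjusted p = 0.921). Without doxycycline replicate 1 it was -0.10 and without doxycycline replicate 2 it was 0.06, so its sign depended on the library left out.

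Pphln1 (chr15:93398345-93491913, plus strand) encodes periphilin, an RNA-binding subunit. Its untreated levels were 103, 105 and 105 CPM, and its doxycycline levels were 112, 95.8 and 112 CPM. Doxycycline replicate 2 fell below all untreated libraries and the other doxycycline libraries lay above them. Pphln1 had a log2 fold change of 0.03 (95% interval -0.09 to 0.15, adjusted p = 0.849), and leaving out doxycycline replicate 2 moved it to 0.10 (adjusted p = 0.209).

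Of the partners of HUSH, Morc2a (chr11:3649189-3690477, plus strand), the mouse counterpart of the MORC2 ATPase gene, varied little. It measured 142, 143 and 142 CPM in untreated and 138, 145 and 143 CPM in doxycycline libraries. The doxycycline libraries enclosed the untreated ones. Morc2a had a log2 fold change of -0.0012 (SE 0.045, 95% interval -0.10 to 0.09, adjusted p = 0.993).

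Setdb1 (chr3:95323525-95357202, minus strand), the H3 lysine 9 methyltransferase shared by the HUSH and KAP1 routes, was at 113, 112 and 112 CPM in untreated and at 116, 111 and 115 CPM in doxycycline libraries. Doxycycline replicates 1 and 3 lay above the untreated span and replicate 2 just below it. The log2 fold change was 0.02 (SE 0.046, 95% interval -0.08 to 0.12, adjusted p = 0.883). Atf7ip (chr6:136518789-136610850, plus strand), whose product stabilizes SETDB1 in the nucleus, ranged from 63.2 to 69.2 CPM in untreated and from 63.0 to 70.0 CPM in doxycycline libraries. These spans are nearly the same, and its log2 fold change was 0.0063 (95% interval -0.12 to 0.13, adjusted p = 0.974).

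Trim28 (chr7:13024152-13031032, plus strand), the gene of the KRAB corepressor KAP1, was at 324, 329 and 315 CPM in untreated and at 303, 348 and 328 CPM in doxycycline libraries. Doxycycline replicate 1 was the lowest and replicate 2 the highest of all 6, the reverse of their order for Fam208a. Trim28 had a log2 fold change of 0.016 (SE 0.050, 95% interval -0.09 to 0.12, adjusted p = 0.917).

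In the DNA methylation group, Dnmt1 (chr9:20907206-20959888, minus strand) was the gene with the highest CPM of the 10. It measured 370.3, 369.8 and 351 CPM in untreated and 360.5, 392 and 353 CPM in doxycycline libraries. Untreated replicate 3 and doxycycline replicate 3 were almost equal and lowest, and doxycycline replicate 2 was highest. The log2 fold change was 0.017 (SE 0.048, 95% interval -0.08 to 0.12, adjusted p = 0.902). Uhrf1 (chr17:56303337-56323486, plus strand), whose product recognizes hemimethylated CpG and brings DNMT1 to it, was at 301, 302 and 294 CPM in untreated and at 306, 312 and 301 CPM in doxycycline libraries. Its groups overlapped only at their edges, and the log2 fold change of 0.04 had the narrowest interval of the 10 genes (-0.05 to 0.12, SE 0.043, adjusted p = 0.748).

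Dnmt3a (chr12:3801559-3914443, plus strand), the de novo methyltransferase, had both the lowest level and the largest absolute log2 fold change. It measured 32.6, 36.5 and 33.5 CPM in untreated and 31.5, 33.5 and 28.6 CPM in doxycycline libraries. Doxycycline replicate 2 lay level with untreated replicate 3, and the other doxycycline libraries lay below every untreated one. The log2 fold change was -0.13 (SE 0.074, 95% interval -0.29 to 0.02, adjusted p = 0.395). Leaving out each library in turn gave -0.19 to -0.07, and the smallest adjusted p among these fits was 0.140.

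**Figure D2:**
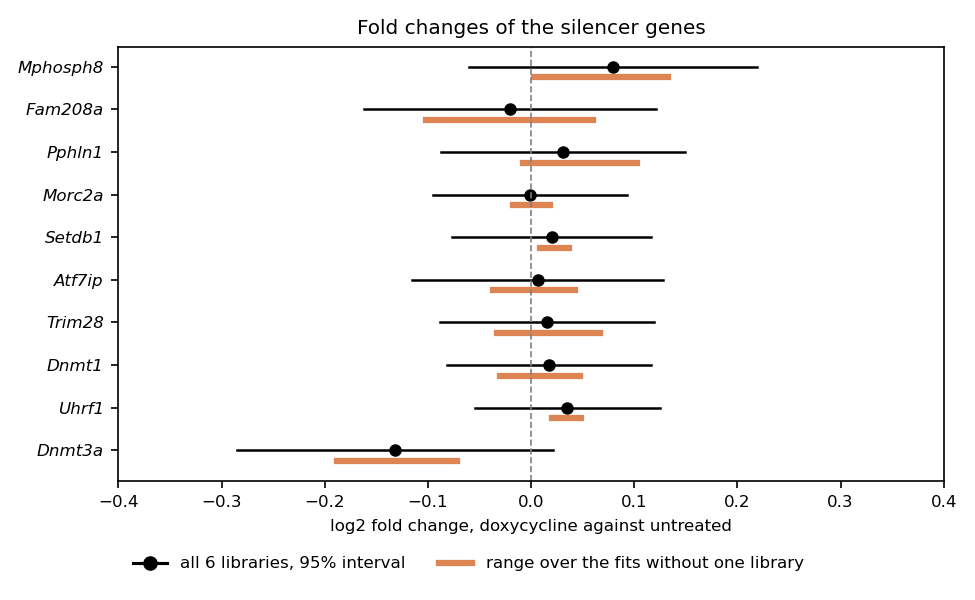
Log2 fold change (x axis) of each silencer gene, doxycycline against untreated, with its 95% interval (black) and the span of values when each of the 6 libraries is left out (orange). All 10 intervals include 0, Uhrf1 has the narrowest and Dnmt3a lies farthest from 0 at -0.13.

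Reads of neighbouring transcripts on the opposite strand bear on some of these counts. The library kit keeps strand, but the setting used in counting is not stated, so reads of a gene and of its antisense partner may not have been separated. Of the exon bases of Fam208a, 12.9% are shared with Ccdc66 on the other strand. The share is 10.7% for Mphosph8 with Gm16973, 7.52% for Morc2a with Tug1, 3.63% for Setdb1 with Gm37500, and under 1.5% for the remaining overlaps of the 10 genes.

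To set the genes beside each other, levels were expressed per length, as CPM per kb of the union of annotated exons (GENCODE M21). Trim28 stood highest at 77.6 ± 1.81 CPM per kb (SD, n = 3 untreated libraries), followed by Uhrf1 at 70.2 ± 1.07 and Dnmt1 at 49.3 ± 1.45. These levels correspond to percentiles 96.5, 96.0 and 93.8 of the tested genes, whose median was 5.79 CPM per kb. A middle group comprised Pphln1 (22.9 ± 0.334), Morc2a (22.2 ± 0.123), Setdb1 (16.4 ± 0.111) and Mphosph8 (14.1 ± 0.594), at percentiles 84.0 to 73.5. Fam208a (4.97 ± 0.192), Atf7ip (3.18 ± 0.146) and Dnmt3a (2.06 ± 0.124) lay below the median of tested genes, at percentiles 46.2, 36.0 and 28.2, but by the longest transcript Fam208a and Atf7ip lay above it, at percentiles 53.3 and 51.1, and Dnmt3a below, at 32.5.

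The order of mean levels was the same in doxycycline libraries and when the length of the longest annotated transcript was used. In untreated libraries no neighbours in the order overlapped. In doxycycline libraries the ranges overlapped for Trim28 and Uhrf1, for Pphln1 and Morc2a, and for Setdb1 and Mphosph8. Length matters most at the low end, where the union of exons exceeds the longest transcript by the widest margin: 20726 against 8059 bases for Atf7ip, 16642 against 9685 for Dnmt3a and 13627 against 7590 for Fam208a. With the longest transcript, Atf7ip stood at 8.18, Fam208a at 8.92 and Dnmt3a at 3.53 CPM per kb, and Fam208a and Atf7ip overlapped in both groups. The gap between the DNA methylation genes at the top, Uhrf1 and Dnmt1, and Dnmt3a at the bottom was present under both lengths.

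**Figure D3:**
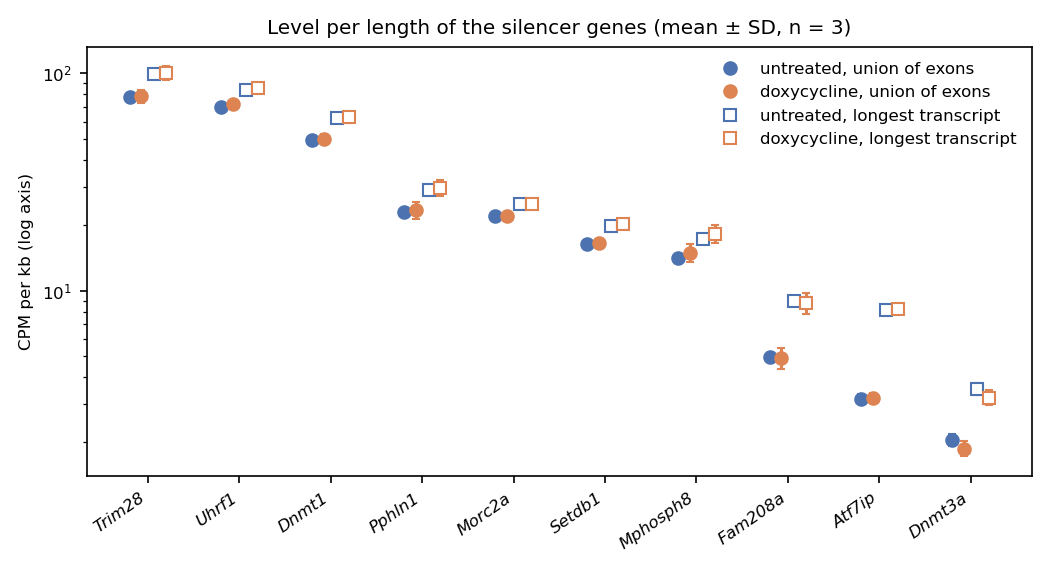
Level per length (CPM per kb, log axis) of the 10 silencer genes in untreated and doxycycline libraries, by the union of exons (filled circles) and by the longest transcript (open squares), as mean ± SD of 3 libraries. Trim28, Uhrf1 and Dnmt1 sit well above the rest, and the choice of length moves Fam208a, Atf7ip and Dnmt3a most.

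Partners were then compared within each library as ratios of levels per length of the longest transcript. For the HUSH core, Fam208a relative to Mphosph8 was 0.519 ± 0.0412 in untreated and 0.482 ± 0.0175 in doxycycline libraries (SD, n = 3 each), and Pphln1 relative to Mphosph8 was 1.70 ± 0.0948 and 1.64 ± 0.117. Setdb1 relative to its stabilizer Atf7ip was 2.44 ± 0.101 and 2.46 ± 0.174, a ratio that rose to 5.17 and 5.22 when union exons were used. Trim28 relative to Setdb1 was 5.00 ± 0.130 and 4.99 ± 0.447, and Dnmt1 relative to Uhrf1 was 0.743 ± 0.0109 and 0.734 ± 0.0278. These 5 ratios overlapped between the groups.

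The ratio of the maintenance to the de novo methyltransferase did not overlap. Dnmt1 relative to Dnmt3a was 18.7, 16.7 and 17.3 in untreated libraries and 18.9, 19.3 and 20.4 in doxycycline libraries. The highest untreated and the lowest doxycycline value were close to each other. The log2 difference was 0.15, with p = 0.1 by a two-sided exact permutation test, which is the smallest p that 3 against 3 libraries can give, and 0.6 after adjustment over the 6 ratios. The adjusted p of the other 5 ratios was 0.9 by the same exact test. This exact test thus cannot take a single ratio past the threshold with 3 libraries a group.

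The spread among doxycycline libraries was wider than among untreated libraries for 10 of the 10 genes, with a median range of 0.177 against 0.0706 log2 units. Over all tested genes the doxycycline range was the wider for 62.3%. Among tested genes with a mean CPM at or above that of the lowest of the 10 genes, the share was 69.6%. The 10 genes were read in the same 6 libraries, so they are not 10 separate observations of this spread. Doxycycline replicates 1 and 2 deviated in opposite directions with GC content over 12989 tested genes (Spearman correlation -0.275 and 0.413, against -0.147 to 0.057 in the other libraries). Among the silencer genes, doxycycline replicate 2 minus replicate 1 was -0.33 log2 units for Fam208a, the gene of lowest GC content (38.9%), and 0.20 for Trim28, the gene of highest GC content (59.6%). It was -0.26 for Mphosph8 (42.6% GC), -0.22 for Pphln1 (43.9%) and 0.12 for Dnmt1 (54.0%), and over the 10 genes this difference had a Spearman correlation of 0.842 with GC content. The genes share these 2 libraries, so the correlation is a description.

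With offsets for GC content and length the differences became -0.15 for Fam208a, -0.14 for Mphosph8, -0.14 for Pphln1 and 0.02 each for Trim28 and Dnmt1. The difference did not shrink for Atf7ip (0.09 before, 0.11 after), Setdb1 (-0.057, -0.058) or Uhrf1 (0.03, -0.06). Its Spearman correlation with GC content over the 10 genes was 0.527 with the offsets. The offsets were fitted to the deviations of these same libraries, so part of the shrinkage was built in. The median SD over 6 libraries went from 0.0659 to 0.0417 log2 units, and 8 of the 10 genes had a smaller SD. In these same 6 libraries the doxycycline range remained the wider for 10 of the 10 genes, with medians of 0.111 and 0.0438 log2 units. It was so for 56.6% of all tested genes, and for 60.2% of those at or above the lowest mean CPM of the 10 genes. Under the same offsets still 0 of the 10 genes passed the test.

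**Figure D4:**
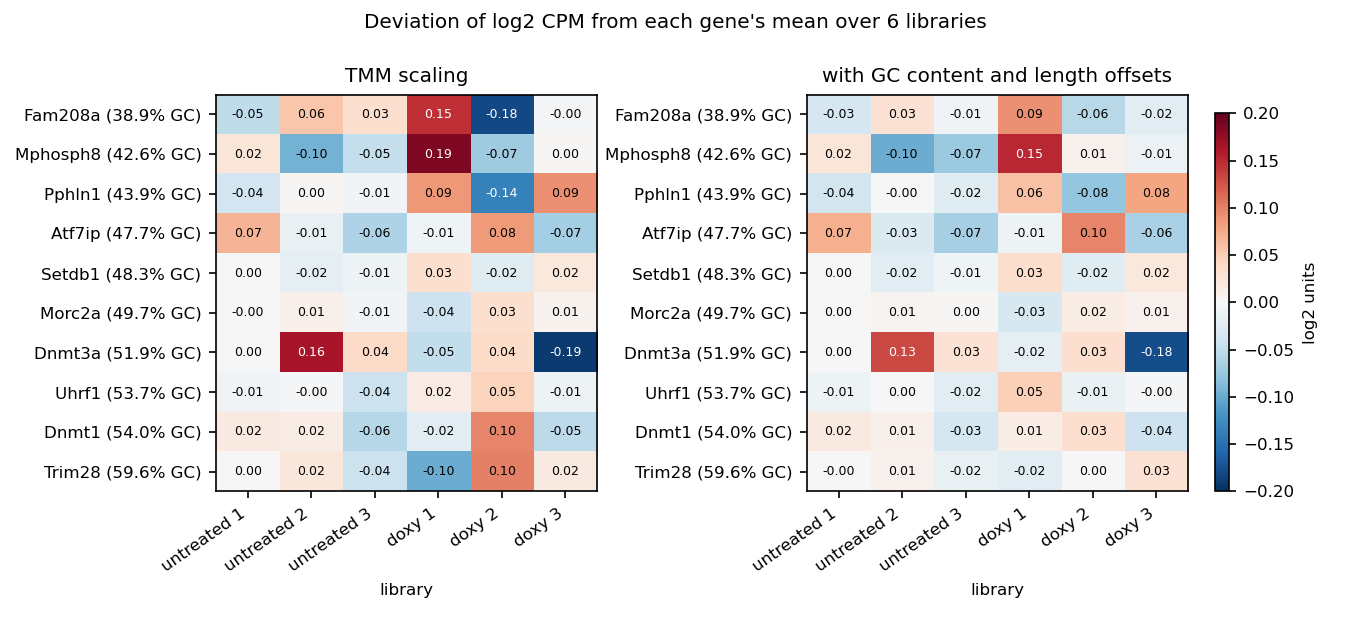
Deviation of log2 CPM from each gene's mean over 6 libraries (colour and printed value, log2 units), with the 10 silencer genes ordered by transcript GC content, before (left) and after (right) offsets for GC content and length. In the left panel doxycycline (doxy) replicate 1 is high at the low-GC end and replicate 2 low, with the reverse at the high-GC end, and the contrast is weaker on the right.

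Likeness between the silencer genes was described over the same libraries. Over the 6 libraries the gene most like Morc2a was Trim28 (Pearson r of log2 CPM 0.975), the gene most like Atf7ip was Dnmt1 (0.897), and the gene most like Mphosph8 was Setdb1 (0.876). Fam208a was closest to Pphln1 (0.830) and Uhrf1 to Dnmt1 (0.810), whereas Dnmt3a was nearest to Dnmt1 at 0.449. Other pairs moved oppositely, among them Mphosph8 and Morc2a (-0.865), Fam208a and Morc2a (-0.861), and Fam208a and Trim28 (-0.889). With the group means removed, Dnmt3a was nearest to Uhrf1 (0.769), ahead of Dnmt1 (0.710). These are descriptions over 6 libraries that share depth and GC differences. With the offsets r was 0.854 for Atf7ip and Dnmt1, 0.741 for Mphosph8 and Setdb1, 0.679 for Morc2a and Trim28, 0.586 for Fam208a and Pphln1, and 0.261 for Dnmt1 and Uhrf1. Fam208a and Uhrf1 were then nearest to each other (0.879). For the opposed pairs named above, in that order, r with the offsets was -0.757, -0.867 and -0.508.

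The wider silencing machinery was examined through 5 lists of related genes. They held 74 genes, of which 70 were tested, with 0 higher, 0 lower and 9 at an unadjusted p under 0.05 by edgeR, which is 12.9% and lies below the 16.2% of all tested genes. DESeq2 called 1 of them, H3f3b, and limma voom 0. In the order of the paragraphs below, the groups did not overlap for 1, 1, 3, 4 and 5 tested genes of these lists. Over all tested genes, the groups did not overlap for 21.3%.

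Around HUSH, 6 of 7 paralogs and recruiters were tested, with 0 higher, 0 lower and a median log2 fold change of 0.021 (0.0025 over all tested genes). Resf1 (2810474O19Rik in the table), a SETDB1 partner in the silencing of endogenous retroviruses, was at 143 to 148 CPM in untreated and 127 to 139 CPM in doxycycline libraries without overlap (log2 fold change -0.12, adjusted p = 0.195). Fam208b, the paralog of Fam208a, was at 211 ± 7.22 and 222 ± 11.4 CPM (0.08 on the log2 scale, adjusted p = 0.471). Morc2b, the paralog of Morc2a, had at most 4 counts in a library and was not tested.

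Among H3 lysine 9 methyltransferases and HP1 readers, 10 of 10 were tested, with 0 higher, 0 lower and a median log2 fold change of -0.0074. Setdb2, the paralog of Setdb1, was at 26.2 ± 2.24 and 26.9 ± 1.91 CPM. Cbx1, which encodes HP1β, was at 70.9 ± 2.47 and 62.5 ± 6.43 CPM (log2 fold change -0.18, adjusted p = 0.145), with overlapping groups. Wiz, a zinc finger partner of the methyltransferases G9a and GLP, had a log2 fold change of 0.09 (adjusted p = 0.469).

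For DNA methylation, 13 of 15 further genes were tested, with 0 higher, 0 lower and a median of -0.0012. Dnmt3b, the other de novo methyltransferase, was lower in CPM than Dnmt3a, at 6.26 ± 1.37 and 7.28 ± 1.17 CPM (log2 fold change 0.22, 95% interval -0.10 to 0.55, adjusted p = 0.514). Dnmt3l, their cofactor in germ cells, had 0 counts in every library. Uhrf2, the paralog of Uhrf1, was at 89.7 ± 2.37 and 82.5 ± 1.92 CPM without overlap (-0.12, adjusted p = 0.229), while Hells, a remodeler needed for DNA methylation of repeats, was at 295.6 ± 4.93 and 295 ± 21.8 CPM. Zbtb24, a transcription factor gene mutated in an inherited hypomethylation syndrome, was at 9.12 ± 0.513 and 7.73 ± 0.894 CPM (-0.24, adjusted p = 0.326). The largest log2 fold change of the list was 0.69 for Tet1, which encodes an oxidase of methylated cytosine. Tet1 was picked out after its values were seen. Its change rests on 0.480 ± 0.105 and 0.774 ± 0.0929 CPM without overlap (adjusted p = 0.369).

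Of 21 KAP1 cofactors and KRAB zinc finger genes, 20 were tested, with 0 higher, 0 lower and a median of -0.02. H3f3b, a gene of the histone variant H3.3, was at 719.9 ± 24.0 and 648 ± 26.3 CPM without overlap (log2 fold change -0.15, adjusted p = 0.0763). Its call depended on the fit, since it was lower under DESeq2, without the filter and with the GC and length offsets. H3f3b has near-identical copies, and how reads shared with them were counted is not stated. Zfp568, a KRAB zinc finger gene, was at 50.0 ± 0.872 and 56.4 ± 0.452 CPM without overlap (0.17, adjusted p = 0.105), and with the offsets it was higher.

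Histone deacetylation and demethylation was represented by 21 tested genes, with 0 higher, 0 lower and a median of -0.02. Hdac1, a deacetylase of the corepressor complexes, was at 97.6 ± 0.859 and 88.1 ± 7.05 CPM (log2 fold change -0.15, adjusted p = 0.186). Kdm4b, a demethylase of H3 lysine 9, was at 22.1 ± 1.34 and 19.1 ± 1.42 CPM (-0.21, adjusted p = 0.208). Sirt6, a deacetylase that acts at L1 elements, was at 15.0 ± 0.651 and 13.6 ± 0.343 CPM (-0.14, 95% interval -0.33 to 0.05, adjusted p = 0.487). The groups of Hdac1, Kdm4b and Sirt6 did not overlap.

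Because Dnmt1 and Uhrf1 are transcribed most strongly in dividing cells, 22 S-phase genes were listed beside them. All 22 were tested, with 0 higher and 0 lower, and their median log2 fold change was 0.024. Mcm5, a subunit of the replicative helicase, was at 257 ± 6.25 and 285 ± 20.6 CPM without overlap (log2 fold change 0.15, adjusted p = 0.123) and was higher with the offsets. Mcm2, of the same helicase, had a log2 fold change of 0.11 (adjusted p = 0.306).

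**Figure D5:**
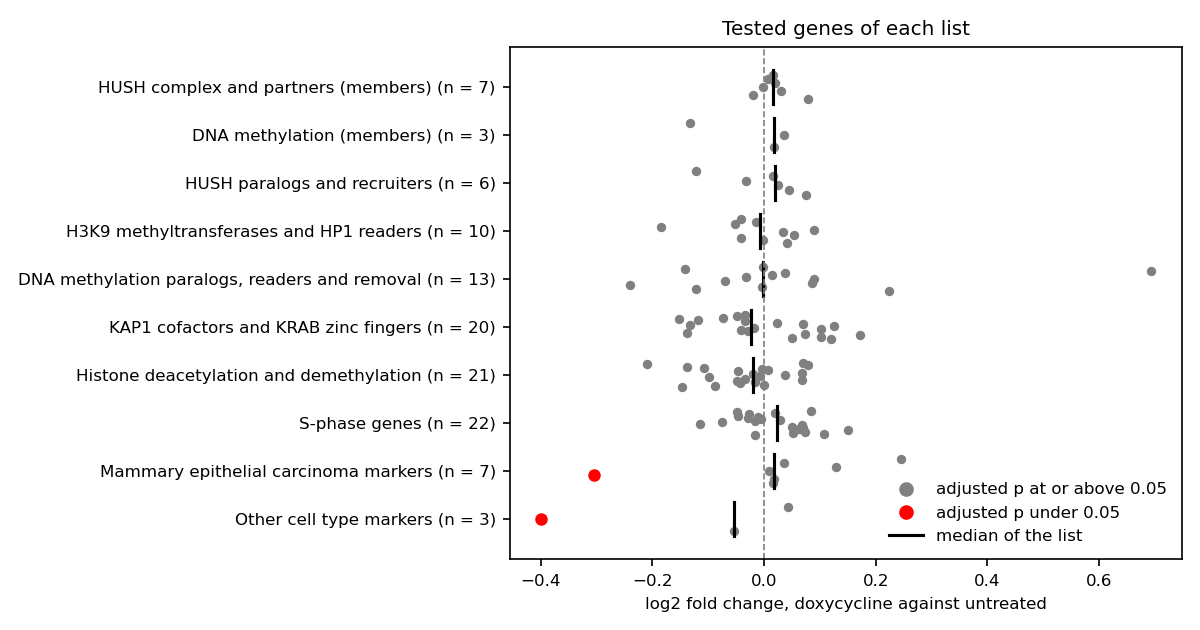
Log2 fold change (x axis) of every tested gene of the 10 silencer genes, the 5 related lists, the S-phase list and the 2 marker lists, with the median of each list as a black bar and genes at an adjusted p under 0.05 (edgeR) in red. The 10 silencer genes lie between -0.13 and 0.08, and the 2 red points are the markers Krt19 and Pdgfra.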

How the data were processed

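Per the labels and the study's methods, the authors prepared strand-preserving, ribosome-depleted libraries, aligned reads to GRCm38 with STAR, counted them with featureCounts (Subread 1.6.2 in the submitters' processing notes) for each gene, and deposited raw read counts for 6 libraries. The strand setting and the handling of multi-mapping reads are not given in the sources used here. All columns were mapped to samples by their library codes.

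Groups came from the sample titles. Replicate numbers did not pair the samples. The study made its RNA sequencing in triplicates, and p-values measure the spread between these cultures. Replicates differed by more than sampling noise (chi-square per degree of freedom 6.14 to 22.1), so each was counted separately.

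The test was edgeR 4.0.16 quasi-likelihood (R 4.3.3; TMM, filterByExpr, robust), fitted on 13084 genes, with Benjamini-Hochberg adjustment and a threshold of 0.05; the study used DESeq2. SE was derived from the log2 fold change and F (its size over root F), and 95% intervals use the total degrees of freedom. CPM are TMM-scaled. Lengths and GC content are from GENCODE M21, promoters from RefSeq GRCm38.p6, and 99.3% of tested genes had GC and length values for loess offsets (span 0.3). Alternatives were 3 other scalings, 2 filters, DESeq2 1.42.0, limma 3.58.1 voom, a replicate block, the offsets, both together, the longest transcript as length and each library left out. The fit was also run on simulated counts. These held no GC trend between libraries, so that run did not cover the GC differences seen here.

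The silencer genes and all lists were chosen with earlier results of these data known, so no set test was run and nothing was adjusted over a list alone. Named genes are the 10 silencers, 8 preset paralogs and partners, and from each list those past the threshold (at most 4), or the 2 with the smallest p where none passed.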

Additional observations from a re-analysis of the deposited data

How the results depend on the processing

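Over the 16 alternative fits, 0 of 160 values of the 10 silencer genes passed the threshold. Their log2 fold changes ran from -0.19 to 0.13, the smallest adjusted p was 0.140 (Dnmt3a without doxycycline replicate 2), and Mphosph8, Setdb1, Uhrf1 and Dnmt3a kept their direction in every fit. None of the reversals below concerns a called value. Fam208a became 0.0089 with GC and length offsets and 0.0085 with offsets and the replicate block. Atf7ip became -0.00019 with upper quartile factors and -0.0038 with library size only. Leaving out each library gave 0.0028 to 0.13 for Mphosph8, -0.10 to 0.060 for Fam208a, -0.0082 to 0.10 for Pphln1, -0.018 to 0.018 for Morc2a, -0.037 to 0.043 for Atf7ip, -0.033 to 0.067 for Trim28 and -0.030 to 0.048 for Dnmt1, and -0.0042 to 0.023 for the median of the 10 genes. In the lists, counts moved from 0 to 1 for Cbx1 lower (no filter, block with offsets), H3f3b lower (no filter, DESeq2, offsets, block with offsets), Zfp568 and Mcm5 higher (offsets, block with offsets) and Cldn4 higher (no filter, offsets, block with offsets). Leaving out a library gave 0 to 1 lower for H3 lysine 9 genes, KAP1 genes, histone deacetylation genes and epithelial markers, and 0 to 1 higher for KAP1 genes, S-phase genes and epithelial markers. By the longest transcript, untreated levels were 99.5 (Trim28), 83.4 (Uhrf1), 62.0 (Dnmt1), 29.2 (Pphln1), 25.2 (Morc2a), 19.9 (Setdb1), 17.2 (Mphosph8), 8.92 (Fam208a), 8.18 (Atf7ip) and 3.53 (Dnmt3a) CPM per kb.

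Same-numbered replicates did not deviate together (correlations -0.040, -0.0045 and 0.018 over 13084 genes). With the replicate as a block, 118 genes were higher over the whole table, against 121 without it, 17 more were lower than the 283 without it, and 0 silencer genes were called higher and 0 lower. The whole-table counts were 385 higher and 481 lower with the offsets, 336 and 437 with offsets and block, 210 and 439 without the filter, and, over the fits without 1 library, 44 to 269 higher and 116 to 487 lower. The cause of these shifts was not tested. The biological coefficient of variation was 6.04%, the silencer genes had group means of 31.2 CPM or more, and Morc2b and Dnmt3l had 0 to 4 counts in a library and Tet1 16 to 29.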
